A study of Mus musculus with 5 samples.

Results

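The Notch genes followed here are the 4 receptors Notch1, Notch2, Notch3 and Notch4, the ligands Jag1 and Jag2, and the target genes Hes1, Hey1, Hey2 and Heyl. They were taken by symbol from the count table, in which they are 10 of 23478 genes, and all 10 had enough reads to be tested together with 15298 genes in all. RNA was sequenced from GFP-sorted lung cells of mice at postnatal day 6. Control mice (2 libraries) carried Gli1creER, a Rosa-EGFP reporter and Igf1r Flox/Wildtype, and mutant mice (3 libraries) carried the same driver and reporter with Igf1r Flox/Flox. Both genotypes received 100 ug of tamoxifen on postnatal days 0 and 1, so the control cells could lose 1 Igf1r copy as well, and the sort collected cells in which the Gli1 promoter had driven Cre, together with their descendants. The background was mixed, both sexes were used, and the number of pups behind a library is not given in the sources used here, so p-values measure only the spread between these libraries.

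Notch signalling passes between neighbouring cells. A ligand of the Jagged or Delta family on one cell binds a Notch receptor on the next, the receptor is cut by ADAM proteases and then by gamma-secretase, and the freed intracellular part joins the DNA-binding protein RBPJ to switch on Hes and Hey genes, which encode transcriptional repressors. In the lung the pathway is known for roles in endothelial cells, in vascular smooth muscle and pericytes, where Notch3 is characteristic, and in the choice between airway epithelial fates.

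The libraries held 35116766 to 37597857 counts each, and levels are given as CPM, the gene's counts scaled to a common library size by the trimmed-mean method. In a library, 3 counts correspond to 0.0754 to 0.0864 CPM, and the lowest count of any Notch gene was 96, for Hey2. Over all genes, control 2 and mutant 1 were the closest pair of libraries (chi-square over its degrees of freedom of 20.7), closer than any pair of the same genotype (23.2 to 50.7). Igf1r, the deleted gene, stood at 324 and 324 CPM in the control libraries and at 140, 177 and 194 CPM in mutant libraries 1, 2 and 3, a log2 fold change of -0.93 that separated the genotypes. Xist, which is transcribed in female cells, stood at 4.09 and 0.628 CPM in control libraries 1 and 2 and at 170, 0.302 and 435 CPM in the mutants. The libraries thus differed in their mix of sexes. Both libraries with high Xist were mutants, so sex was not balanced between the genotypes. The fibroblast marker list (10 genes, among them Col1a1) summed to 45737 and 44710 CPM in the controls and to 43438, 30877 and 34930 CPM in the mutants, with 9 of 10 markers lower and a median log2 fold change of -0.30. The fibroblast sum was thus lower in the mutants, as Notch1 and Notch2 were, and its part in their values was not tested. The marker lists for endothelial, smooth muscle, pericyte, epithelial and hematopoietic cells were also detected, with no listed marker at 0 throughout. By the paper's staining, reporter recombination was not seen in epithelial, endothelial or hematopoietic cells and was rare in pericytes. The source of these transcripts in the sorted libraries was not tested. In bulk RNA of this kind, fewer cells of a type and less RNA per cell cannot be told apart.

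To compare the Notch genes with each other, CPM was divided by the length of each gene's exons in kilobases. On this scale Hes1 had the highest level, with a mean of 38.4 CPM per kilobase and a range of 31.5 to 45.8 over the 5 libraries, which lay wholly above the next gene. Notch2 (22.6, range 20.2 to 25.5), Heyl (22.4, range 17.6 to 27.0) and Notch3 (21.1, range 15.9 to 25.2) followed, and their ranges overlapped, so the order among these 3 genes was not resolved. Notch1 stood well below that trio, at 8.04 CPM per kilobase (range 4.77 to 11.3), and overlapped with Hey1 at 6.51 (range 5.09 to 8.13). Jag1 came next at 3.79 CPM per kilobase (range 3.33 to 4.32) and was apart from both of its neighbours in the order. The lowest levels were those of Notch4 (2.14, range 1.08 to 3.08), Hey2 (0.937, range 0.602 to 1.24) and Jag2 (0.679, range 0.440 to 1.16), and the range of Hey2 overlapped with both of the others. Dividing by coding length instead placed Heyl first at 117 and Hes1 second at 92.4 CPM per coding kilobase. It also placed Hey1 (23.7) above Notch1 (15.1) and close to Notch3 (24.5), and Hey2 (4.23) above Notch4 (2.93). The ranks of these genes thus depend on the length used.

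**Figure D1:**
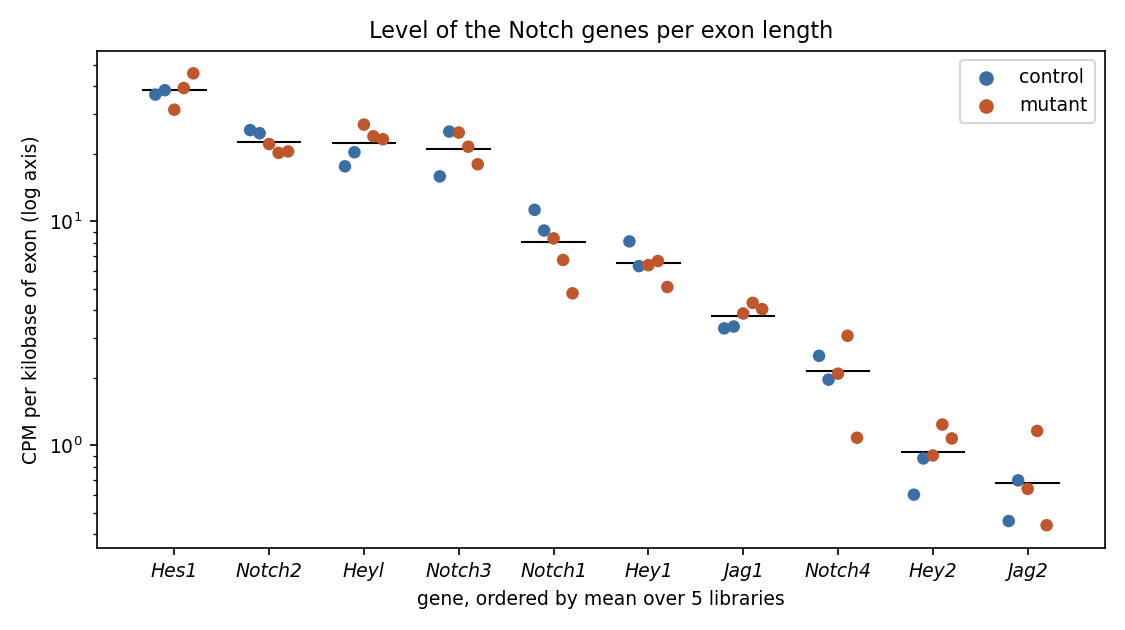
Level of the 10 Notch genes in CPM per kilobase of exon on a log axis, with 1 point per library and control and mutant libraries in separate colours. Hes1 lies above the other genes in all 5 libraries, Notch2, Heyl and Notch3 overlap, and Jag2 has the lowest mean, 0.679 CPM per kilobase.

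Among the receptors, Notch2 and Notch3 together supplied most of the summed per-length level in every library. The share of Notch2 was 46.3% and 40.6% in the controls and 38.5%, 39.2% and 46.3% in the mutants, and that of Notch3 was 28.8% and 41.3% against 43.3%, 41.8% and 40.5%. The share of Notch1 was 20.4% and 14.9% in the controls and 14.6%, 13.0% and 10.8% in the mutants, so every mutant library lay below both controls, with control 2 and mutant 1 nearly equal. Notch4 gave the smallest share throughout, from 2.44% in mutant 3 to 5.98% in mutant 2. These shares were described without a test.

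The comparison of genotypes asked how deletion of Igf1r, the receptor for insulin-like growth factors, in Gli1-lineage cells went with Notch gene expression. Notch1 and Notch2 were lower, and Jag1 and Heyl higher, in mutant than in control libraries, with no overlap between genotypes, while Notch3, Notch4, Jag2, Hes1 and Hey1 overlapped. By edgeR's quasi-likelihood test, 0 of the 10 genes had a Benjamini-Hochberg adjusted p under 0.05, as did 0% of all genes tested. At an unadjusted p under 0.05, met by 12.4% of all genes in either direction, there were 2 lower genes (Notch1 and Notch2), where 6.75% of all genes were lower, and 2 higher genes (Jag1 and Heyl), where 5.65% were higher. DESeq2 also called 0 of the 10 genes at its adjusted threshold, at which it called 1.49% of the genes it tested, and limma voom called 0. The genotypes did not overlap for 5 of the 10 genes, 3 higher and 2 lower in the mutants, beside 31% of all genes tested (16% higher and 14.9% lower). The median log2 fold change of the 10 genes was 0.056, beside 0.015 for all genes. Leaving out a control left 1 control library, so only effect sizes are given for those fits. Without control 1 the log2 fold change was -0.46 for Notch1 (-0.62 with all libraries) and -0.25 for Notch2 (-0.26). It was 0.26 for Jag1 (0.28) and 0.28 for Heyl (0.38). Without mutant 2, 1 Notch gene was higher and 0 lower, beside 367 higher and 626 lower of 15100 genes tested. Without mutant 3 there were 1 higher and 1 lower, beside 480 and 633 of 15153 genes. With 1 mutant library left out at a time, Heyl kept an unadjusted edgeR p under 0.05 each time and Notch1 lost it without mutant 2. Notch2 and Jag1 kept it only without mutant 1.

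**Figure D2:**
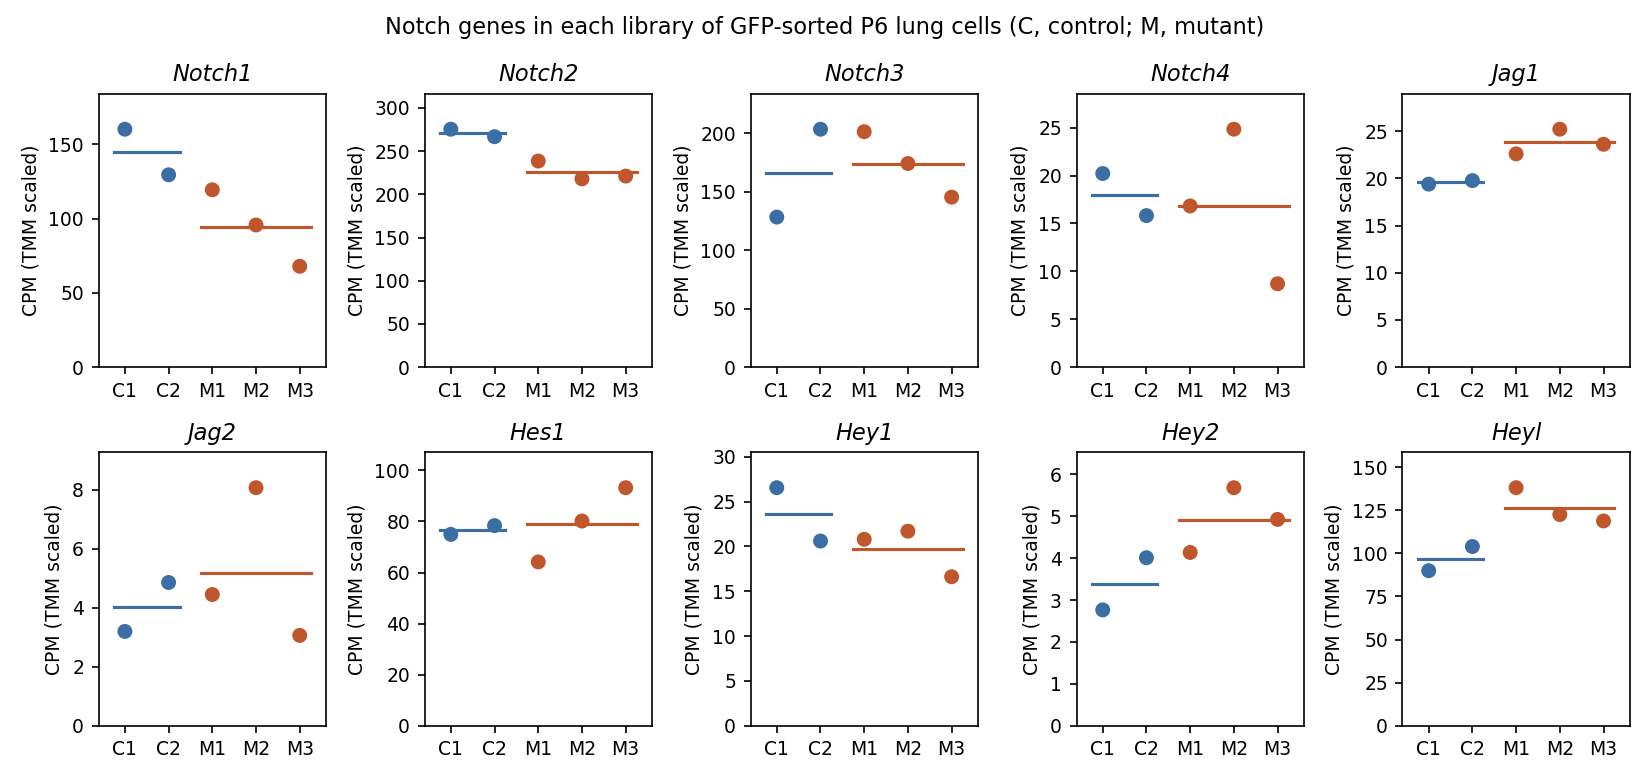
Level of each of the 10 Notch genes in the 2 control and 3 mutant libraries, in CPM with a separate axis starting at 0 for each gene; points are libraries and short lines are group means. The mutant points lie below both controls for Notch1 and Notch2 and above both for Jag1, Hey2 and Heyl.

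Notch1, a receptor best known from T-cell and endothelial development, stood at 160 and 129 CPM in control libraries 1 and 2 and at 119, 95.7 and 67.9 CPM in the mutants. All 3 mutant libraries lay below both controls, mutant 1 just so and mutant 3 by the widest margin. The group means were 145 ± 21.7 (SD, n = 2) and 94.3 ± 25.8 CPM (SD, n = 3), and the log2 fold change was -0.62 with a standard error of 0.22. In edgeR's quasi-likelihood test across all genes its unadjusted p was 0.0260 and its Benjamini-Hochberg adjusted p 0.364, and the 95% interval ran from -1.14 to -0.098. Among the 10 genes only Notch1 met a threshold modelled on that of the study (0.5 or more in either direction on the log2 scale, an unadjusted p under 0.05 and over 1 CPM), which 5.83% of all genes met. The study's own version took p from DESeq and the level in FPKM, which were not used here. The gene lies on the minus strand of chromosome 2 from 26457903 to 26516663 (GRCm38, GENCODE M21), and 9.76% of its exon bases overlap with annotated genes on the opposite strand. The counting was not stated to use strand, so reads from those antisense genes could not be told apart from Notch1 there.

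Notch2 had the highest mean per-length level of the receptors, although Notch3 lay above it in control 2, mutant 1 and mutant 2. In CPM, Notch2 stood at 275 and 267 in control libraries 1 and 2 and at 239, 218 and 221 in the mutants. The mutant libraries were close together and all lay below both controls. The means of 271 ± 6.13 CPM (SD, n = 2) and 226 ± 11.1 CPM (SD, n = 3) gave a log2 fold change of -0.26 with a standard error of 0.096, smaller than that of Notch1 but with less spread. By edgeR's quasi-likelihood test the unadjusted p was 0.0275 and the Benjamini-Hochberg adjusted p 0.364, with a 95% interval from -0.49 to -0.039. Notch2 is encoded on the plus strand of chromosome 3 from 98013527 to 98150361, and 5.02% of its exon bases overlap with another annotated gene on that strand.

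Notch3 and Notch4 showed no separation of the genotypes. Notch3, the receptor of mural cells, stood at 128 and 203 CPM in control libraries 1 and 2 and at 201, 174 and 145 CPM in the mutants. The controls marked both the lowest and the highest value, with the mutants in between, and the log2 fold change of 0.066 had a 95% interval of -0.44 to 0.57. Its Benjamini-Hochberg adjusted p in edgeR's quasi-likelihood test was 0.910, and its sign turned without control 1 (-0.23) or mutant 1 (-0.059). The pericyte markers other than Notch3 (9 genes) summed to 915 and 1067 CPM in the control libraries and to 1011, 936 and 902 CPM in the mutants. Postn, the most abundant, stood at 473 and 653 CPM against 600, 495 and 508 CPM, with control 2 and mutant 1 highest as for Notch3. The other markers did not share that order. Cspg4 was highest in control 2, Rgs5, Kcnj8 and Abcc9 in control 1, and Pdgfrb, Higd1b, Cox4i2 and Trpc6 in mutant 2. The part of these markers in the result was not tested. Notch4, a receptor expressed mainly in endothelium, stood at 20.2 and 15.8 CPM in control libraries 1 and 2 and at 16.8, 24.8 and 8.71 CPM in the mutants. Mutant 2 was the highest library and mutant 3 the lowest, and the log2 fold change of -0.10 had a 95% interval of -0.99 to 0.79 and an adjusted p of 0.927 by the same edgeR test. It was 0.085 without control 1 and 0.21 without mutant 3.

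Of the ligands, Jag1, the main Jagged ligand of the vessel wall, stood at 19.4 and 19.8 CPM in control libraries 1 and 2 and at 22.6, 25.2 and 23.6 CPM in the mutants. The controls were nearly equal and every mutant library lay above them. The log2 fold change was 0.28 with a standard error of 0.11, from means of 19.6 ± 0.263 (SD, n = 2) and 23.8 ± 1.32 CPM (SD, n = 3). By edgeR's quasi-likelihood test its unadjusted p was 0.0335 and its Benjamini-Hochberg adjusted p 0.378, and the 95% interval ran from 0.029 to 0.54. Jag1 is on the minus strand of chromosome 2 from 137081456 to 137116644. Jag2, a second Jagged ligand, stood at 3.20 and 4.86 CPM in control libraries 1 and 2 and at 4.45, 8.07 and 3.06 CPM in the mutants. Only mutant 2 lay above both controls and mutant 3 lay below both. The log2 fold change of 0.37 had a 95% interval of -0.62 to 1.36 and an adjusted p of 0.731 (edgeR, quasi-likelihood), and it was -0.11 without mutant 2.

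The target genes did not share a direction. Hes1, a repressor that answers to Notch and to other signals, stood at 74.9 and 78.4 CPM in control libraries 1 and 2 and at 64.2, 80.2 and 93.2 CPM in the mutants. The mutants enclosed the controls, and the log2 fold change of 0.047 had a 95% interval of -0.32 to 0.41, an adjusted p of 0.913 by edgeR's quasi-likelihood test and the opposite sign without mutant 3 (-0.090). Hey1, a repressor prominent in endothelium, stood at 26.6 and 20.6 CPM in control libraries 1 and 2 and at 20.8, 21.7 and 16.6 CPM in the mutants. Control 1 was the highest library and mutant 3 the lowest, the log2 fold change was -0.26 (95% interval -0.65 to 0.13, edgeR adjusted p of 0.529), and without control 1 it was -0.068.

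Hey2, a repressor of arterial and cardiac development, was the least abundant target at 2.76 and 4.01 CPM in control libraries 1 and 2 and 4.14, 5.68 and 4.93 CPM in the mutants. Every mutant lay above both controls, though control 2 and mutant 1 were almost equal. Its log2 fold change of 0.54 had a standard error of 0.26 and a 95% interval of -0.084 to 1.16, with an unadjusted p of 0.0804 and an adjusted p of 0.442 in edgeR's quasi-likelihood test. Leaving out control 1 brought the value to 0.29, and leaving out control 2 to 0.82. Heyl, a target characteristic of Notch3-expressing mural cells, stood at 90.0 and 104 CPM in control libraries 1 and 2 and at 138, 123 and 119 CPM in the mutants. The mutants lay above both controls with mutant 1 the highest. The means of 97.0 ± 9.91 (SD, n = 2) and 127 ± 10.2 CPM (SD, n = 3) gave a 1.30-fold difference, a log2 fold change of 0.38 with a standard error of 0.12. Its unadjusted p of 0.0121 was the smallest of the 10 genes in edgeR's quasi-likelihood test, with a Benjamini-Hochberg adjusted p of 0.354 and a 95% interval of 0.11 to 0.65. Heyl lies on the plus strand of chromosome 4 from 123233556 to 123249875.

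**Figure D3:**
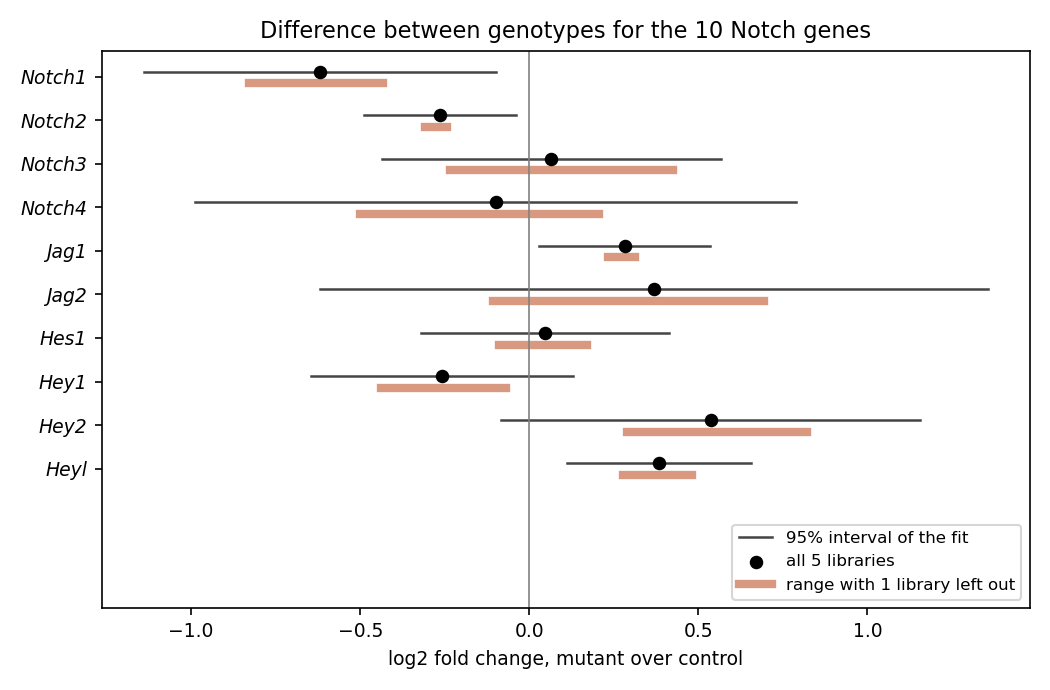
Log2 fold change of mutant over control for the 10 Notch genes (black points), with the 95% interval of the edgeR fit (thin lines) and the range of values with 1 library left out (thick bars). The intervals of Notch1, Notch2, Jag1 and Heyl lie to 1 side of 0, and the bars of Notch3, Notch4, Jag2 and Hes1 cross 0.

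An exact permutation test over the 5 libraries cannot give a two-sided p below 0.1, since there are only 10 ways to choose the control libraries. Notch2, Jag1 and Heyl gave that smallest value, and Notch1 and Hey2 gave 0.2.

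Promoter sequences show where the Notch-linked target and the ligand and receptors with separated genotypes stand with respect to the letters read by RBPJ and by Hes and Hey proteins. RefSeq sequences of GRCm38.p6 matched 7 of the 10 genes, and Hes1, Hey1 and Heyl were the genes not matched. Windows of 250 bases before to 50 bases after a start were searched on both strands for GTGGGAA, the core of the RBPJ motif, which reads as TTCCCAC on the other strand. They were also searched for the motifs of Hes and Hey proteins, the palindrome CACGTG as well as the class C site spelled CACGCG, which on the other strand reads as CGCGTG. No match of 1 motif overlapped with a match of another in the sequences printed. Capitals mark each match, and each sequence runs 5′ to 3′ on the strand of its gene, ending just before the RefSeq start site except for Hey2, whose second match crosses it. The Notch1 start of RefSeq, at 26503822, lies 12841 bases inside the 5′ end of the GENCODE gene, which includes a longer transcript, and the region before that outer end was not searched. Hey2 is at chr10:30842781-30843033 (minus), Jag1 at chr2:137116521-137116770 (minus), Notch1 at chr2:26503823-26504072 (minus) and Notch2 at chr3:98013288-98013537 (plus).
Hey2: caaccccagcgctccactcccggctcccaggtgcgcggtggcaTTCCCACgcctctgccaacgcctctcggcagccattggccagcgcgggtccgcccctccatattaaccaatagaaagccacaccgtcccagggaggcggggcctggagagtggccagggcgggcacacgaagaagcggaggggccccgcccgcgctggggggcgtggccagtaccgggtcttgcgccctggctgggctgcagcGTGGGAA
Jag1: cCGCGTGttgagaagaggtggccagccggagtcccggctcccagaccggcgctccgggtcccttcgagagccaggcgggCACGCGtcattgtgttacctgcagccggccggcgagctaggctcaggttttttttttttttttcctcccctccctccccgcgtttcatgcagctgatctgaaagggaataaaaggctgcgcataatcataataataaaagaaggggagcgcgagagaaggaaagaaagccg
Notch1: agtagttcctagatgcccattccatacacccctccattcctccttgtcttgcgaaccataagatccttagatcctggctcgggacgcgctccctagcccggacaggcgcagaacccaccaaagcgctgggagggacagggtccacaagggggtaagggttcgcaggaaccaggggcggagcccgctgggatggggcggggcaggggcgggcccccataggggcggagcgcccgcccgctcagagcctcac
Notch2: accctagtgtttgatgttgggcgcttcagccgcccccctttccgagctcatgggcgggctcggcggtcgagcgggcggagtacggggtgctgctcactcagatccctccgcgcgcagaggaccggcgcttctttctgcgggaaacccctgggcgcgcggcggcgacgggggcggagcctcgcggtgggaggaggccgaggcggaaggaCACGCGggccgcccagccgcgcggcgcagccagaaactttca

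The RBPJ letters occurred in 6.38% of 32851 such windows, and of the 7 genes matched only Hey2 held them, with one match on each strand, beginning 207 and 4 bases before the start. CACGCG or its reverse occurred in 9.27% of windows and was found 249 and 171 bases before the start of Jag1, 42 bases before that of Notch2 and 18 bases after that of Jag2. CACGTG occurred in 7.15% of windows and in none of the 7 genes. Notch1, Notch3 and Notch4 held none of the 3 motifs in the window of the RefSeq start. A match describes letters and not binding, which was not measured here.

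Levels of Notch4 and Jag2 moved across the mutant libraries with the endothelial and the epithelial markers. The 14 endothelial markers summed to 664 and 641 CPM in the control libraries and to 607, 899 and 329 CPM in mutants 1, 2 and 3, of which 5 markers were higher and 9 lower in the mutants. The adhesion molecule Pecam1 stood at 90.7 and 89.9 CPM against 78.9, 120 and 40.2 CPM, and the endothelial cadherin Cdh5 at 152 and 144 CPM against 135, 206 and 58.4 CPM. Mutant 2 exceeded mutant 3 by 2.74-fold for the marker sum, by 2.85-fold for Notch4 and by 2.64-fold for Jag2. The endothelial ligand Dll4 (2.43-fold) and the target Nrarp, a feedback inhibitor of Notch (2.77-fold), which were chosen after their values were seen, differed between these libraries to a like extent. For Notch1 the same ratio was 1.41 and for Hey1 it was 1.31. The 13 epithelial markers had the same order over the mutants, at 778, 1158 and 526 CPM (2.20-fold from mutant 2 to mutant 3), beside 1150 and 1074 CPM in the controls. The part of the endothelial and of the epithelial markers in these results was not tested.

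**Figure D4:**
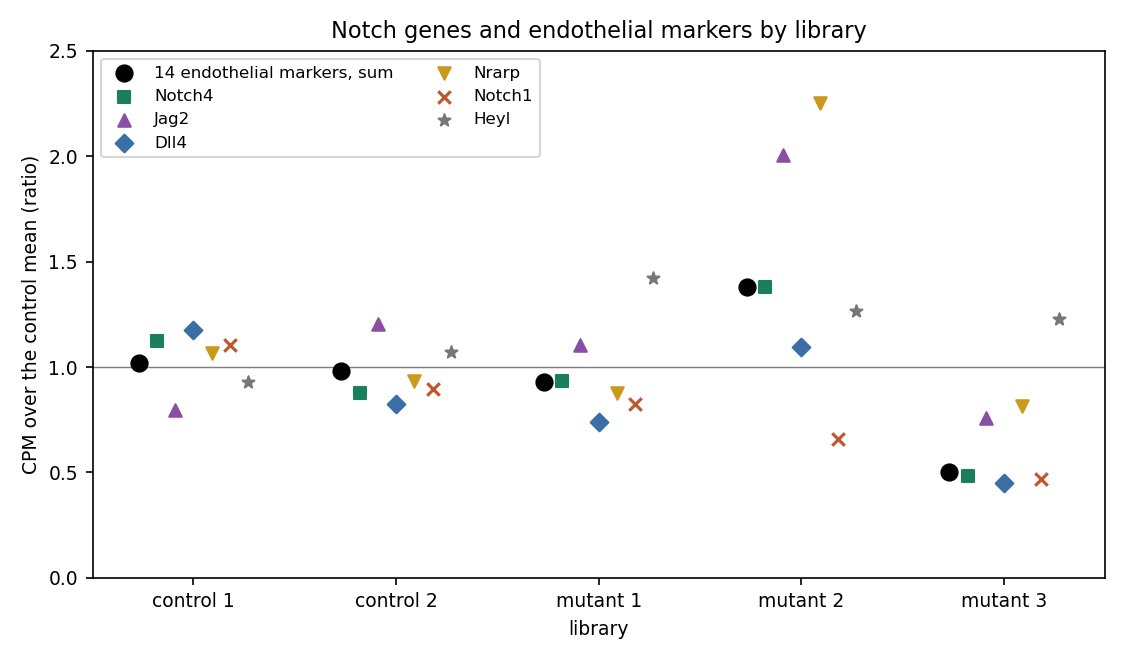
CPM relative to the mean of the control libraries for the sum of 14 endothelial markers, Notch4, Jag2, Dll4, Nrarp, Notch1 and Heyl in each of the 5 libraries. Notch4 follows the marker sum closely (1.38 in mutant 2 and 0.483 in mutant 3), and Notch1 is below 1 and Heyl above 1 in all 3 mutants.

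Heyl and Jag1 were higher in the libraries in which smooth muscle markers were higher. The 10 smooth muscle markers summed to 1240 and 1943 CPM in the control libraries and to 2133, 2987 and 2464 CPM in the mutants. All 10 had a log2 fold change above 0, with a median of 0.60. At an unadjusted edgeR p under 0.05, 7 of the 10 were higher, beside 5.65% of all genes. Their best known member, the smooth muscle actin gene Acta2, stood at 407 and 655 CPM against 764, 1067 and 907 CPM. The paper identified myofibroblasts by αSMA staining and reported that recombination reached few smooth muscle cells of airways and vessels. These markers thus do not mark smooth muscle cells alone. The myofibroblast list (10 genes, among them Pdgfra) summed to 21047 and 14583 CPM in the controls and to 15845, 12665 and 14072 CPM in the mutants. Eln, the most abundant, stood at 17351 and 11104 CPM against 12501, 9150 and 10370 CPM and made up most of the sum. Of its markers 4 were higher and 6 lower, with a median log2 fold change of -0.16. At an unadjusted edgeR p under 0.05, 2 were higher (Wnt5a and Fgf18) and 1 lower (Hhip), beside 5.65% and 6.75% of all genes. The paper found its own myofibroblast gene set, which is not this list, enriched among genes higher in these mutant cells. It also counted more αSMA-stained cells among GFP-labelled cells at a later age. Heyl was highest in mutant 1 and Acta2 in mutant 2. The part of the smooth muscle and myofibroblast markers in the Heyl and Jag1 values was not tested. Immediate early genes, which rise when tissue is dissociated, were lower in the mutants (17 of 17 with a log2 fold change below 0). At an unadjusted edgeR p under 0.05, 8 of them were lower, beside 6.75% of all genes, and their part was likewise not tested. The hematopoietic markers summed to 584 and 408 CPM against 474, 342 and 213 CPM and were lower for 11 of 11 tested, and Notch1, which blood cells also express, had its lowest value in mutant 3 as they did; their part in the Notch1 value was not tested.

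The genes nearest to Heyl in their pattern over the 5 libraries, by the root-mean-square difference of centred log2 CPM among 15298 genes, were Tyms (0.0129), Gltpd1 (0.0313) and G3bp1 (0.0319). Those nearest to Notch2 were Rnf130 (0.0117), Marc2 (0.0159) and Npm1 (0.0186). With 5 libraries and so many genes, likeness of this kind is a description only.

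The rest of the pathway was read from a list of 58 genes, of which 52 were tested, and most lay close to the control level. The log2 fold change of 49 of the 52 was within 0.5 of 0, with 22 above 0, 30 below and a median of -0.039. By edgeR's quasi-likelihood test 0 had a Benjamini-Hochberg adjusted p under 0.05, and at an unadjusted p under 0.05 there were 1 higher (Fbxw7) and 4 lower (Dlk1, Psen2, Dtx3l and Dtx4) of the 52, beside 5.65% higher and 6.75% lower over all genes, so the list was not called more often than genes in general. Without mutant 1 the counts were 5 higher and 6 lower, beside 1423 higher and 1760 lower of 15138 genes tested in all. No gene of the list was higher without mutant 2 or mutant 3, beside 367 and 480 higher genes in all. The genotypes did not overlap for 9 higher and 8 lower genes of the 52, beside 16% higher and 14.9% lower over all genes. The genes not tested for low counts were Dll3, Dlk2, Hes2, Hes3, Hes5 and Helt, the last with 0 counts in every library, which allows up to 0.0754 to 0.0864 CPM.

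Among the other ligands all 4 genes tested had values below 0. Dlk1, an imprinted Delta-like protein that lacks the receptor-activating domain of the classical ligands, stood at 87.8 and 92.6 CPM in control libraries 1 and 2 and at 60.4, 49.1 and 29.8 CPM in the mutants, the largest difference of the list in size. Every mutant lay well below both controls, with a log2 fold change of -0.96, a standard error of 0.26 and an edgeR quasi-likelihood p of 0.00669 before and 0.354 after adjustment, while DESeq2 gave an adjusted p of 0.0287. Dlk1 had an unadjusted p under 0.05 in 15 of 15 alternative fits.

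For the proteases that cut the receptor and their subunits, 2 of 9 genes were above 0 and 7 below, with a median of -0.080. Psen2, a catalytic subunit of gamma-secretase, stood at 25.2 and 20.3 CPM in control libraries 1 and 2 and at 18.3, 16.9 and 15.6 CPM in the mutants, with no overlap (log2 fold change -0.43, standard error 0.14). Without control 1 its log2 fold change was -0.27. Without mutant 3 it was -0.37, with an unadjusted p of 0.0507 in edgeR's quasi-likelihood test. Of the genes that modify, sort or degrade the receptor, 5 of 9 were above 0. Dtx4, a Deltex ubiquitin ligase, stood at 159 and 136 CPM against 120, 111 and 115 CPM, and its relative Dtx3l at 14.6 and 12.2 CPM against 10.5, 9.30 and 8.54 CPM. Both were lower in every mutant library, by a log2 fold change of -0.35 and of -0.50. Without control 1 these values were -0.24 for Dtx4 and -0.37 for Dtx3l. Fbxw7, the ubiquitin ligase subunit that marks the Notch intracellular domain for degradation, stood at 15.1 and 17.2 CPM against 18.1, 21.6 and 26.0 CPM, and every mutant lay above both controls (log2 fold change 0.44, standard error 0.17). With 1 mutant library left out at a time, its unadjusted edgeR p stayed under 0.05 without mutant 1 but not without mutant 2 or mutant 3. Without control 1 its log2 fold change was 0.35. These 4 genes had adjusted p values of 0.354 to 0.384 in edgeR's quasi-likelihood test.

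The other groups held no gene at an unadjusted p under 0.05. For receptor maturation 2 of 6 genes were above 0 and the most abundant was Furin, the convertase that cuts the receptor precursor, at 316 and 289 CPM against 290, 289 and 284 CPM. For ligand endocytosis 3 of 4 were above 0, led in level by the ubiquitin ligase gene Mib2 at 41.0 and 43.1 CPM against 40.2, 44.7 and 50.1 CPM. Of 17 nuclear cofactors 8 were above 0, and the most abundant was the corepressor gene Ctbp1 at 262 and 269 CPM against 294, 281 and 284 CPM. Rbpj, the DNA-binding partner of all 4 receptors, chosen after its values were seen, stood at 161 and 172 CPM against 159, 158 and 178 CPM, with a log2 fold change of -0.014. Of the other target genes, 2 of 3 tested were above 0, and the most abundant, Hes6, stood at 24.0 and 20.9 CPM against 19.6, 18.7 and 16.8 CPM, every mutant lying below both controls.

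**Figure D5:**
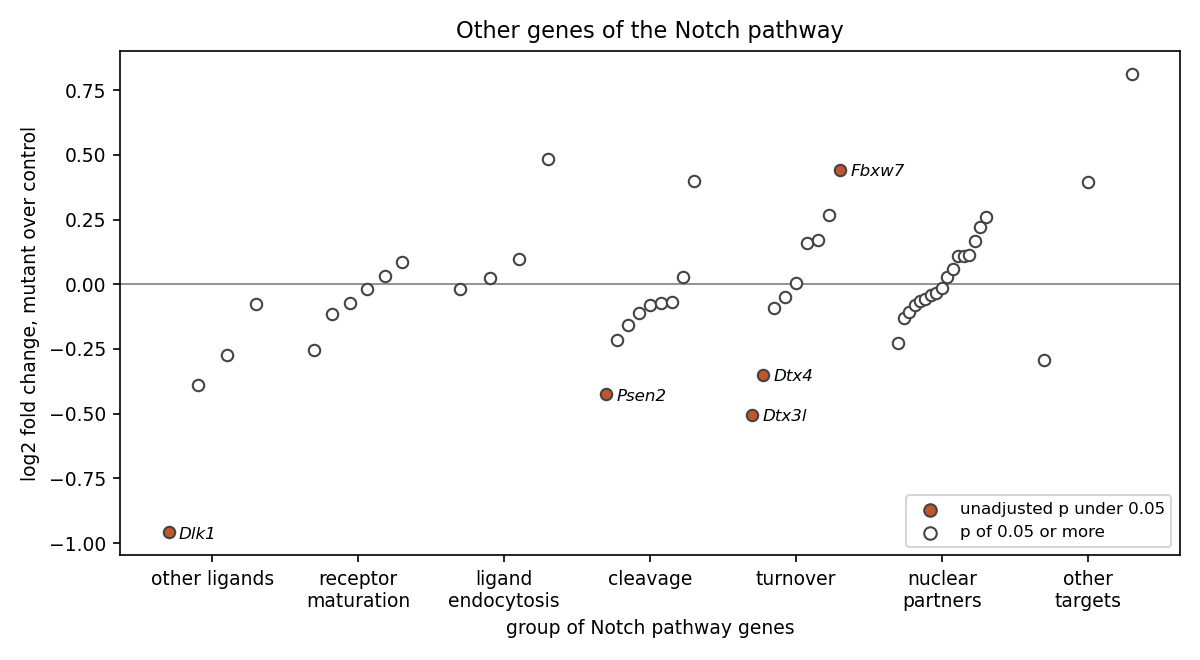
Log2 fold change of mutant over control for the 52 other Notch pathway genes tested, grouped by role, with genes at an unadjusted p under 0.05 marked and named. Most points lie within 0.5 of 0, and Dlk1 at -0.96 lies lowest.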

How the data were processed

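RNA of 5 GFP-sorted lung cell libraries was read as 150-bp paired ends. The submitters' processing notes name Trim Galore, Bowtie2, Cufflinks, DESeq and mm10, without versions, and the deposited file holds the authors' raw counts per gene. Bowtie2 places reads without intron gaps, so reads across exon joins may be lost. The strand setting was not stated.

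Counts were scaled by TMM and tested in edgeR 4.0.16 (quasi-likelihood F test, two-sided, filterByExpr, genotype only, Benjamini-Hochberg over 15298 genes; R 4.3.3); DESeq2 1.42.0 and limma 3.58.1 served as alternatives. Groups came from the sample titles. Totals were 35116766 to 37597857 counts per library. Lengths came from GENCODE M21, in which all 10 genes were found. The procedure was tested on simulated counts. A chi-square over its degrees of freedom between libraries of the same group was 23.2 to 50.7, so none was a repeat, and between groups it was 20.7 to 133. Genes were named by a rule: all 10 Notch genes, Igf1r and the defining cell type markers. Of other pathway genes, those with an unadjusted p under 0.05 were named, or otherwise the most abundant of their list. Also named were the 3 genes nearest in pattern to the Notch gene with the smallest p. The same was done for the receptor with the highest mean per-length level. The members and lists were chosen with earlier results of these data known.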

Additional observations from a re-analysis of the deposited data

How the results depend on the processing

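Across 15 alternative fits, Notch1, Notch2, Jag1, Hey1, Hey2 and Heyl kept their sign in all 15. No Notch gene reached an adjusted p under 0.05 in the fits that kept both controls. In those fits the adjusted p ran from 0.112 to 0.711 for Notch1 and from 0.150 to 0.713 for Notch2. It ran from 0.190 to 0.718 for Jag1 and from 0.146 to 0.711 for Heyl. DESeq2 left 1 higher and 2 lower Notch genes at an unadjusted p under 0.05, beside 863 higher and 1167 lower genes in all. It called 1 pathway gene and 197 of all genes at its adjusted threshold. Library totals, which put the median of all genes at 0.088, left 1 lower Notch gene, beside 744 lower genes in all. With them 2 Notch genes and 3 pathway genes were higher, beside 1343 higher genes in all. With Xist as a covariate, chosen after seeing the data, Notch4 was 0.20. At an unadjusted edgeR p under 0.05, 0 Notch genes were then lower, with 0.0634 for Notch1 and 0.0579 for Notch2. Higher were 3 Notch genes (Jag1, Heyl and Jag2, the last at 0.80 with an unadjusted edgeR p of 0.0278) and 2 pathway genes. Over all genes, 693 were higher and 1047 lower in that fit, of 15298 tested.

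The replicate numbers are shared by the genotypes, but only 2 pairs exist and no label says what a number marks. Same-numbered libraries deviated together with r of 0.208 and 0.121, but control 2 and mutant 3, with unlike numbers, gave 0.119. With 2 controls the deviations of the controls mirror each other, so these values cannot show a pairing. With the replicate number as a block, mutant 3 has no control of its number and adds nothing to the genotype effect. The values lay near those without mutant 3, at -0.43 for Notch1 in both fits, and Notch4 was 0.20 and Hes1 -0.095. At an unadjusted edgeR p under 0.05, 1 Notch gene was lower (Notch1) and 2 were higher (Heyl and Jag2), beside 1123 lower and 933 higher of all genes. Jag2 stood at 0.61 with an unadjusted edgeR p of 0.0366, while the p of Jag1 was 0.0555 and that of Notch2 0.0803. In the pathway 2 genes were higher, and adjusted calls numbered 1 in the pathway and 136 over all genes. The block changed no sign of the other 8 Notch genes.

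Leaving out 1 library gave log2 fold changes of -0.83 to -0.43 for Notch1, -0.31 to -0.24 for Notch2, -0.23 to 0.43 for Notch3 (negative also without mutant 1, -0.059), -0.50 to 0.21 for Notch4 (0.085 without control 1), 0.23 to 0.31 for Jag1, -0.11 to 0.69 for Jag2, -0.090 to 0.17 for Hes1, -0.44 to -0.068 for Hey1, 0.29 to 0.82 for Hey2 and 0.28 to 0.48 for Heyl. Counts at an unadjusted p under 0.05 ranged from 0 to 2 higher and 0 to 2 lower Notch genes, 0 to 5 higher and 1 to 6 lower pathway genes, and 181 to 1423 higher and 252 to 1760 lower genes in all. Adjusted calls over all genes ranged from 0 to 45. Genes without overlap ranged from 5 to 7 Notch genes, 20 to 34 pathway genes and 6023 to 9813 of all genes; fewer libraries overlap less by construction.

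Per coding kilobase the mean levels were 15.1 for Notch1, 32.9 for Notch2, 2.93 for Notch4, 6.05 for Jag1, 1.26 for Jag2, 92.4 for Hes1, 23.7 for Hey1, 4.23 for Hey2 and 117 for Heyl, and the receptor shares were 19.7% for Notch1 and 32.6% for Notch3. The cause of the other movements was not tested. The counts of the Notch genes ran from 96 to 9774 per library.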
